A study of Homo sapiens with 4 samples.

Results

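Chromatin accessibility at the genes of the tripartite motif (TRIM) family was examined with ATAC-seq, an assay that uses a transposase to tag open DNA, in 2 control and 2 IRF4-silenced libraries of TMD8. TMD8 is an established line of diffuse large B cell lymphoma of the activated B cell-like (ABC) type, and IRF4 encodes a transcription factor on which such cells depend. The control group received a scrambled short hairpin RNA (shRNA); in the group named shIRF4 the hairpin targeted IRF4. Library names carry siIRF4 in place of the shIRF4 of the titles, and the titles and design text were followed. Protein-coding genes whose symbol is TRIM followed by digits and at most 1 letter were taken from the hg38 RefSeq gene table, which gave 73 genes and left out 2 pseudogenes. A merged peak, here called an interval, was counted for a TRIM gene when its midpoint lay inside the gene body. An interval outside all protein-coding bodies was counted when the nearest protein-coding gene end, within 100 kb, was that of a TRIM gene. This gave 189 of the 73135 intervals, 103 in bodies and 86 outside, at 57 of the 73 genes.

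TRIM proteins carry a RING domain, B-boxes and a coiled coil, and most of them are E3 ubiquitin ligases, which pass ubiquitin from an E2 enzyme to a target. What follows the coiled coil, such as a PRY-SPRY, NHL, bromodomain or COS box region, sets much of what each protein binds. Several members restrict viruses or tune the sensing of viral RNA and DNA, and a number of these are induced by interferon. Others act as nuclear cofactors, on microtubules or in muscle. IRF4 belongs to the interferon regulatory factors, which bind GAAA-containing elements, often together with ETS or AP-1 factors.

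Promoter sequences from RefSeq (GRCh38.p14) are shown for each TRIM window that overlapped an interval called higher or lower, with TRIM21 beside them as a start region that missed the threshold. The table held 77 windows for 58 of the 73 genes. Each sequence runs 5′ to 3′ on the gene's strand from 250 bases before to 30 bases after the start site. Capitals mark matches, on either strand, to the interferon-stimulated response element (ISRE: GAAA, any 2 bases, GAAA), the ETS-IRF composite element (EICE: GGAA, any 2 bases, GAAA) or the AP-1 site (TGACTCA, whose reverse complement is TGAGTCA). ISRE and EICE differ at 1 base.
TRIM38 (chr6:25962552-25962831, plus strand): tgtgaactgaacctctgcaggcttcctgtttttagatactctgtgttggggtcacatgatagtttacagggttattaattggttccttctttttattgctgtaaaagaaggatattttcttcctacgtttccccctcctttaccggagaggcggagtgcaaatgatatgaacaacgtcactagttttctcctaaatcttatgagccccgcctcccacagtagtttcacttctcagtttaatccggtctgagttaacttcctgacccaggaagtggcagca
TRIM5 (chr11:5685045-5685324, minus strand): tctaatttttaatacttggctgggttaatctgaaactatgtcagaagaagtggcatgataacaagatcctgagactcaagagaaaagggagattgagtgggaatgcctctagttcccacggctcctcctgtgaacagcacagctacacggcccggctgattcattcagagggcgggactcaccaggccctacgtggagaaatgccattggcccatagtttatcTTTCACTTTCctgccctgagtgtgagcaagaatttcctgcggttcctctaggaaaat
TRIM34 outer start (chr11:5624751-5625030, plus strand): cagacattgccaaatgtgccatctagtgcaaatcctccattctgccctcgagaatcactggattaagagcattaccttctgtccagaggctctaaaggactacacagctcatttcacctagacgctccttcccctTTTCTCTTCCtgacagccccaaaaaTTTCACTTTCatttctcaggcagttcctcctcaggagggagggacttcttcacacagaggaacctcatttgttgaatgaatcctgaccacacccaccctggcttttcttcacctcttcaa
TRIM34 inner start (chr11:5632005-5632284, plus strand): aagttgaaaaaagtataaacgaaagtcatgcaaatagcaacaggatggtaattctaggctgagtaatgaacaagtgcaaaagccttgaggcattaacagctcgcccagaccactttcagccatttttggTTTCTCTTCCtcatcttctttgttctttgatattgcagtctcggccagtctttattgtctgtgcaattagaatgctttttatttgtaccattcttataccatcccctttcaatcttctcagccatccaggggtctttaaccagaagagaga
TRIM25 (chr17:56914020-56914299, minus strand): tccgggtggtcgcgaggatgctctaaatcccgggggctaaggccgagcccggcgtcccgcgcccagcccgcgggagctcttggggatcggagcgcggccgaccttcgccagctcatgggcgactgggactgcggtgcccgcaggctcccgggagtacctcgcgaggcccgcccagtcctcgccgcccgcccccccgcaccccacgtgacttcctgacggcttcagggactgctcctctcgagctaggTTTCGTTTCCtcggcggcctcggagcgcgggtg
TRIM32 start, window a (chr9:116687055-116687334, plus strand): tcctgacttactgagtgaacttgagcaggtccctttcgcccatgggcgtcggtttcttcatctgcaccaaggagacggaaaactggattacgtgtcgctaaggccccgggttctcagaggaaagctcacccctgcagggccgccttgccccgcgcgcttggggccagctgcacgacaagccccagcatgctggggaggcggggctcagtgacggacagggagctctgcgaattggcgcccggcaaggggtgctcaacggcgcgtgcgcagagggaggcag
TRIM32 start, window b (chr9:116687319-116687598, plus strand): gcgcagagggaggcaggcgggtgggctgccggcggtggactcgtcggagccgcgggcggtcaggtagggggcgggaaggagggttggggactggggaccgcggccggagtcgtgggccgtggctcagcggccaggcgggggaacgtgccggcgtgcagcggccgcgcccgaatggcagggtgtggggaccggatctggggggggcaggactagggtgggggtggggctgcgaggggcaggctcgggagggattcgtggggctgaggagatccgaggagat
TRIM2 start, window a (chr4:153151913-153152192, plus strand): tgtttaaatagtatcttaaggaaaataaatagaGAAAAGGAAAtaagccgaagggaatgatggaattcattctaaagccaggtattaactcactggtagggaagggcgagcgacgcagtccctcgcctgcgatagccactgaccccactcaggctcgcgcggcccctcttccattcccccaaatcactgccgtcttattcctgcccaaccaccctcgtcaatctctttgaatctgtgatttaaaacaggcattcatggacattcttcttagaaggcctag
TRIM2 start, window b (chr4:153152084-153152363, plus strand): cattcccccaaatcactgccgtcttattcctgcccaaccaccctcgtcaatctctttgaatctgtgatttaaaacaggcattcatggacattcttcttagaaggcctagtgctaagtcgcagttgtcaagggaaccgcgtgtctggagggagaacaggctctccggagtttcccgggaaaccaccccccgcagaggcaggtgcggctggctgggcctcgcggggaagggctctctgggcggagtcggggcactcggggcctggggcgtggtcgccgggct
TRIM2 start, window c (chr4:153152828-153153107, plus strand): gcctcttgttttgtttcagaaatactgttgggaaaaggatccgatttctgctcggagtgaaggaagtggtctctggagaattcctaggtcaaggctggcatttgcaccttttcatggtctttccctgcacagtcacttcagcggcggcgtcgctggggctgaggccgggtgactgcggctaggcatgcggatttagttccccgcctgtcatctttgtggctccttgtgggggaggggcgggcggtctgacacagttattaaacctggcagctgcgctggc
TRIM21 (chr11:4393673-4393952, minus strand): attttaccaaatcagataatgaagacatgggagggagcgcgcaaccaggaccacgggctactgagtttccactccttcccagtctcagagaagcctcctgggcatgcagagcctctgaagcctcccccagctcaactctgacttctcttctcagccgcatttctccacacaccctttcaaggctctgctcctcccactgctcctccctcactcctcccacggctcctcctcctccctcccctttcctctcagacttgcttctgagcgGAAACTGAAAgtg

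The TRIM5 window and the outer TRIM34 window both hold TTTCACTTTC, and both TRIM34 windows hold TTTCTCTTCC. The TRIM21 window holds GAAACTGAAA, the TRIM25 window TTTCGTTTCC and TRIM2 window a GAAAAGGAAA. No motif was matched in the TRIM38 window, in either TRIM32 window or in the other TRIM2 windows shown. Over all TRIM windows, the ISRE was found in 10 of 77 (13.0%), against 3.39% of 34943 windows of the same length. The EICE was found in 4 of 77 (5.19%, against 2.69%), and TGACTCA in 4 of 77 (5.19%, against 4.74%). Of the TRIM windows with an ISRE match, 7 overlapped a tested interval, which was higher at 2 and lower at 1. Overlap was counted for the window and not for the match. The lower case is TRIM2 window a, whose match, at position -217 from the start site, lies outside the lower interval (from 153152033). Of those without it, 33 overlapped a tested interval, which was higher at 4 and lower at 3. Some windows share a gene or an interval, and a match describes letters, not binding.

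The total count per library was 12152153 and 13609123 in control replicates 1 and 2, and 17954924 and 9112860 in shIRF4 replicates 1 and 2. The labels do not say whether the replicates came from separate cultures, so p-values measure only the spread between these libraries. In bulk libraries, fewer cells with an open site and a less open site in each cell cannot be told apart, and no RNA was measured here, so the knockdown itself was not checked. Among the promoter windows of 6 B cell marker genes, 3 had an interval, at 65.3 to 91.0 CPM (TMM-scaled counts relative to library size) in control. Of 6 T cell markers only CD8A had one, at 26.7 CPM, of 5 myeloid markers 2 had one, at 3.68 and 9.21 CPM, and of 5 epithelial and fibroblast markers none did.

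Of the 189 TRIM intervals, 188 passed the filter on low counts, and 38 of them changed: 17 were higher and 21 lower in shIRF4 (edgeR quasi-likelihood test, adjusted p below 0.05). The higher ones make 9.04% of the tested TRIM intervals, where 7.27% of all 73028 tested intervals were higher. The lower ones make 11.2%, where 15.5% of all were lower, and 22.8% of all were called in either direction. The family as a whole thus lay near the genome's rates, with a median log2 fold change of 0.00 against 0.01 over all tested intervals. When libraries were scaled by their totals alone, the counts turned to 24 higher and 18 lower TRIM intervals. Among the called TRIM intervals, falls were larger than rises. The 21 lower intervals had a median fold of 1.71 and reached 7.33-fold, with 8 at or beyond 2-fold. The 17 higher ones had a median fold of 1.41 and reached 2.21-fold, with 1 beyond 2-fold. Folds were not summarised over all called intervals, so whether TRIM intervals differ from the genome in this was not tested. A higher interval was found at 15 genes and a lower one at 14, with 4 genes in both counts and 32 genes with an interval but no call.

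**Figure D1:**
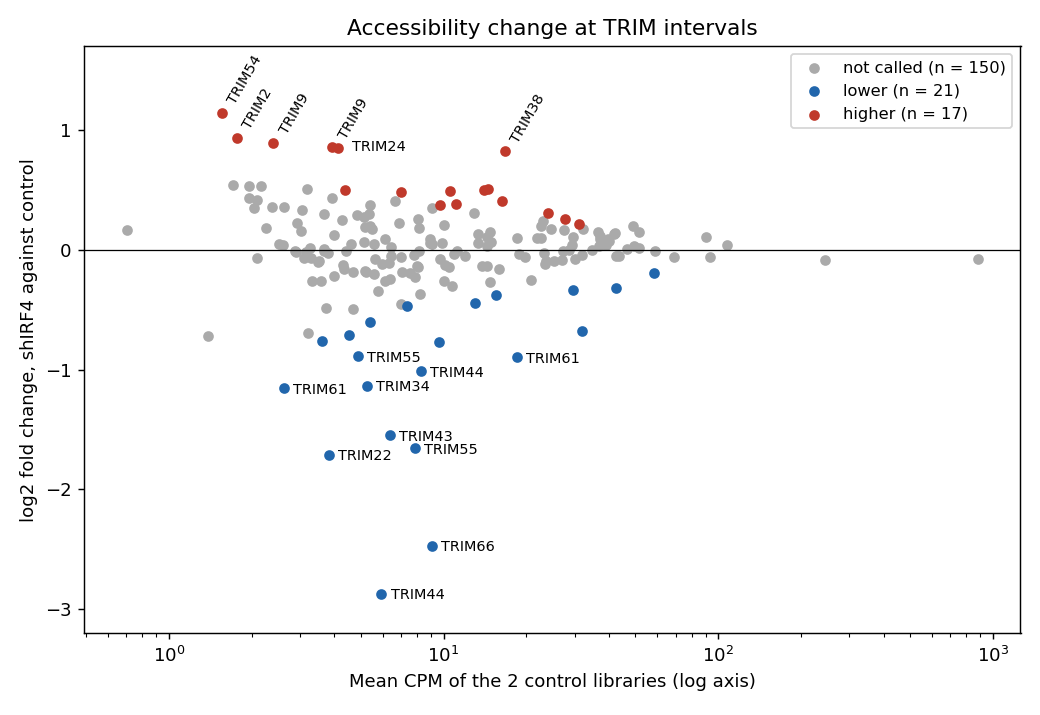
Each point is 1 of the 188 tested TRIM intervals, placed by its mean CPM in the 2 control libraries (log axis) and its log2 fold change in shIRF4 against control. The 21 lower intervals (blue) reach -2.87 at TRIM44, the 17 higher ones (red) reach 1.14 at TRIM54, and genes are named where a called change was at least 0.8 in size.

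By position, 32 tested intervals overlapped a promoter window (250 bases before to 50 after the start) of their own TRIM gene, and 5 of them were higher and 3 lower. These are 15.6% and 9.38%, while 4.97% and 4.94% of the 11223 tested intervals at any promoter window were higher and lower (9.91% in either direction). The 5 higher intervals lay at TRIM38, TRIM5, TRIM34, TRIM25 and TRIM32, and the 3 lower ones at TRIM2 (with 2) and TRIM34. Of such intervals, 2 were higher when control replicate 1 was left out and 3 when shIRF4 replicate 1 was, and DESeq2 called 1 higher and 2 lower. The number lower was 2 or 3 in each of the other fits. Of TRIM intervals that overlapped no promoter window of their own gene, 8 of 81 in gene bodies were higher and 11 lower. Outside bodies 4 of 75 were higher and 7 lower. Windows were held for only 58 of the 73 genes. Intervals over an end of TRIM8, TRIM24 or TRIM28, none of them called, thus count here and not among the 32. The shares at promoter windows therefore leave out such regions. Of all intervals at no promoter window, 7.68% were higher and 17.5% lower (25.1% in either direction).

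**Figure D2:**
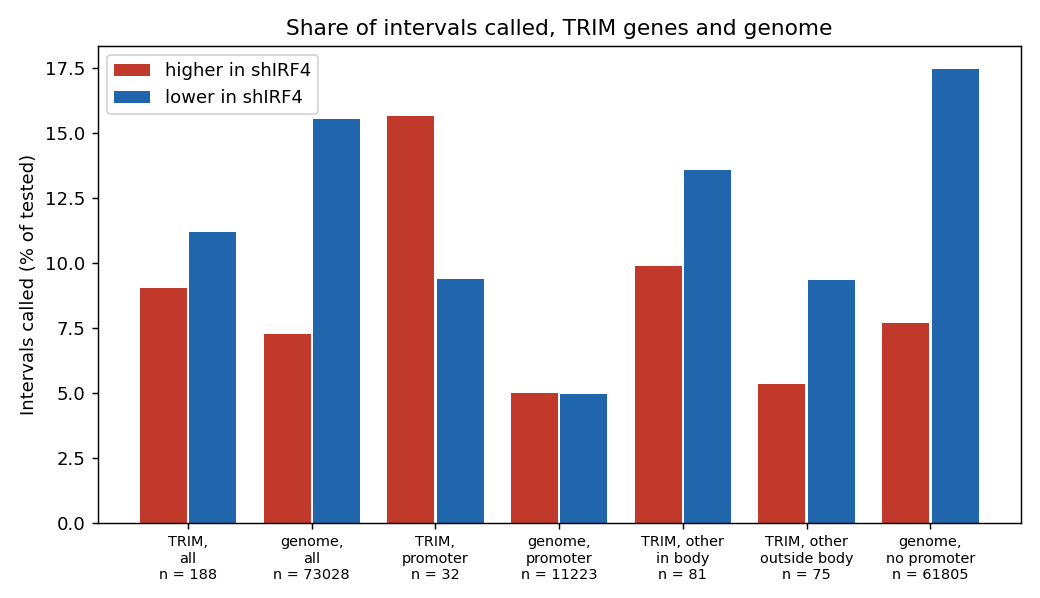
Bars give the percentage of tested intervals called higher (red) or lower (blue) in shIRF4, for TRIM intervals and for the genome, split by overlap with a promoter window; n is the number tested. At TRIM promoter windows 15.6% were higher and 9.38% lower, from 32 intervals, beside 4.97% and 4.94% of the 11223 at all promoter windows.

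The 10 TRIM genes listed as induced by interferon had 6 higher and 2 lower among 33 tested intervals (18.2% and 6.06%, against 7.27% and 15.5% of all tested intervals), with a median log2 fold change of 0.13. The rises were small, and DESeq2 called 1 of them; without control replicate 1, 3 were called. TRIM38, a ligase that tunes Toll-like receptor and nucleic acid sensing signals, had the firmest rise of the family. Its start interval on chromosome 6 (25962135 to 25963198) stood at 17.4 and 15.995 CPM in the control libraries and at 32.9 and 24.4 CPM in the shIRF4 libraries. Both shIRF4 libraries lay above both controls, with replicate 1 well above replicate 2. The mean rose from 16.7 ± 0.969 CPM in control to 28.7 ± 5.98 CPM in shIRF4 (n = 2, SD), a log2 fold change of 0.82 with an SE of 0.11 (adjusted p = 1.31e-05, edgeR). The value was 0.56 without shIRF4 replicate 1 and 0.98 without shIRF4 replicate 2, and TRIM38 was the only one of the 17 rises called under each of the 8 other fits tried. At the opposite end of the gene, an interval at 25991758 held 52.2 and 50.5 CPM in control and 53.7 and 49.1 CPM in shIRF4, and did not pass (0.01, adjusted p = 0.941, edgeR).

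TRIM5, TRIM6, TRIM34, TRIM22 and TRIM21 lie together on the short arm of chromosome 11, and their changes went both ways. TRIM5 encodes the capsid-binding factor that restricts retroviruses. Its start interval (5684464 to 5685243) held 15.02 and 13.1 CPM in control and 19.9 and 19.5 CPM in shIRF4, groups that did not overlap (0.50, SE 0.11, adjusted p = 0.00134, edgeR). That call was lost without control replicate 2 (0.40, adjusted p = 0.0542, edgeR). TRIM34, a close relative of TRIM5, has start windows in 2 intervals, and these moved in opposite directions. The outer one (5624378 to 5625308) held 15.7 and 17.0 CPM in control and 24.3 and 17.8 CPM in shIRF4, and rose by 0.41 (SE 0.12, adjusted p = 0.0151, edgeR). This rise rests on shIRF4 replicate 1, without which it was 0.13 (adjusted p = 0.580, edgeR), and its call was also lost without control replicate 1 (0.34, adjusted p = 0.0848, edgeR). The inner one (5632005 to 5632380) fell from 4.95 and 5.58 CPM to 2.28 and 2.62 CPM, and was called lower in each fit (-1.14, SE 0.21, adjusted p = 0.000390, edgeR). The annotated TRIM5 body spans TRIM6 and TRIM34, so that 5 intervals count for more than 1 TRIM gene, and the readthrough TRIM6-TRIM34 covers them too.

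TRIM22, an interferon-induced antiviral ligase, fell inside its body. The interval at 5703859 to 5704160 had 44 and 53 reads in control and 18 and 14 in shIRF4, or 3.69 and 3.94 against 0.977 and 1.53 CPM (-1.71, SE 0.27, adjusted p = 5.91e-05, edgeR). The other interval of TRIM22 (5689349) spans the end of the gene body with the lower coordinate (5689790). It held 21.1 and 20.6 CPM in control and 17.8 and 17.1 CPM in shIRF4. These groups did not overlap, but the difference did not pass (-0.25, adjusted p = 0.0647, edgeR). TRIM21, the cytosolic Fc receptor that sends antibody-bound virus to degradation, had 1 interval, at its start (4392881 to 4394055), with 22.8 and 23.3 CPM in control and 28.4 and 25.4 CPM in shIRF4. The groups did not overlap, but the difference missed the threshold (0.24, SE 0.09, adjusted p = 0.0590, edgeR). It passed without shIRF4 replicate 2 (0.30, adjusted p = 0.00909, edgeR) and with scaling by totals (0.29, adjusted p = 0.0263, edgeR). TRIM6 had 3 tested intervals, all shared with TRIM5 and none at its ends, and none passed.

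TRIM25, which attaches ubiquitin in the RIG-I pathway of viral RNA sensing, had 2 higher intervals among 4. At its start on chromosome 17 (56913256 to 56914508) the control libraries held 22.6 and 25.3 CPM and the shIRF4 libraries 29.3 and 30.1 CPM (0.31, SE 0.09, adjusted p = 0.0134, edgeR). A second, intragenic interval (56908063) held 7.89 and 6.10 CPM in control and 10.2 and 8.95 CPM in shIRF4 (0.48, SE 0.15). Both were higher in each shIRF4 library than in each control, but neither call was stable. The first was lost without control replicate 1 (0.23, adjusted p = 0.234, edgeR), the other without control replicate 2 (0.30, adjusted p = 0.381, edgeR) and without shIRF4 replicate 1 (0.38, adjusted p = 0.239, edgeR). TRIM14, an adaptor in mitochondrial antiviral signalling, rose at 1 of 11 intervals, inside the gene on chromosome 9 (98042603 to 98043682). That interval held 9.31 and 11.8 CPM in control and 14.98 and 14.6 CPM in shIRF4 (0.49, SE 0.12, adjusted p = 0.00617, edgeR), a call lost without control replicate 1 (0.34, adjusted p = 0.171, edgeR). Its gene-end interval with the most reads (98034608) did not pass (28.0 and 26.3 against 28.8 and 24.3 CPM, adjusted p = 0.967, edgeR). The start intervals of TRIM26 (41.0 and 42.3 against 45.9 and 45.4 CPM) and TRIM56 (14.3 and 15.4 against 14.9 and 16.7 CPM) did not pass either.

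**Figure D3:**
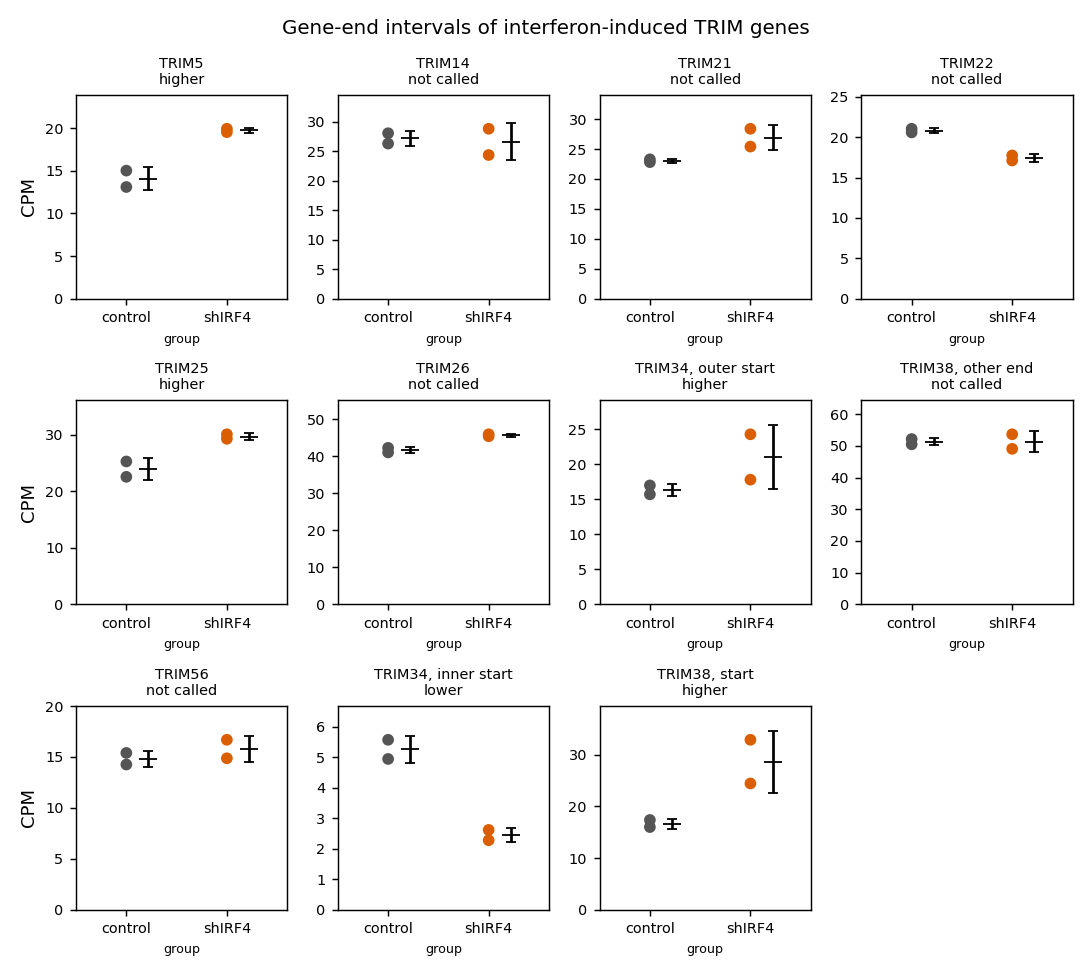
Each panel shows CPM in the 2 control (grey) and 2 shIRF4 (orange) libraries at a gene-end interval of an interferon-induced TRIM gene, with mean and SD bars; panel titles give the call. The shIRF4 points lie above the controls at the TRIM38, TRIM5, TRIM25 and outer TRIM34 starts and below them at the inner TRIM34 start; TRIM21, TRIM22 and TRIM26 also show groups that do not overlap, without a call.

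The nuclear cofactors TRIM24, TRIM28, TRIM33 and TRIM66 bind chromatin and repress or activate transcription, and none of the gene-end intervals described here passed. TRIM28, the corepressor that zinc finger proteins of the KRAB type recruit, lay in 1 merged interval of 30777 bp on chromosome 19 that reaches well beyond the gene. It held 890 and 875 CPM in control and 805 and 867 CPM in shIRF4 (-0.08, adjusted p = 0.193, edgeR). Without shIRF4 replicate 2 it was called lower (-0.13, adjusted p = 0.00289, edgeR), and at this width it does not resolve the promoter. The 286 other tested intervals within 1 Mb of it had a median log2 fold change of -0.37. The start interval of TRIM33, which modifies TGF-beta signalling, held 40.2 and 40.2 CPM in control and 39.4 and 45.8 CPM in shIRF4 (0.07, adjusted p = 0.590, edgeR). At TRIM24, a bromodomain reader, the gene-end interval held 88.6 and 92.3 against 99.2 and 95.1 CPM (0.11, adjusted p = 0.210, edgeR). An interval 28590 bp outside TRIM24 (138431455) rose from 3.86 and 4.39 to 7.76 and 6.98 CPM (0.85, SE 0.17, adjusted p = 0.000957, edgeR), a call kept with any 1 library left out and lost in DESeq2 (adjusted p = 0.0634).

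TRIM66, a testis-enriched relative of TRIM24, had one of the deepest falls of the family, inside its gene body on chromosome 11 (8634263 to 8634900). The control libraries had 101 and 130 reads there and the shIRF4 libraries 27 and 18, or 8.47 and 9.67 against 1.47 and 1.96 CPM. The site went from 9.07 ± 0.847 to 1.71 ± 0.352 CPM (n = 2, SD), at -2.47 with an SE of 0.21 (adjusted p = 1.94e-08, edgeR). At the start of TRIM66 (8681995) the groups overlapped, with 38.6 and 34.8 CPM in control and 36.8 and 38.4 CPM in shIRF4 (0.03, adjusted p = 0.818, edgeR).

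The deepest fall was in TRIM44, which lacks a RING domain and carries a ubiquitin-protease-type zinc finger. Its interval on chromosome 11 (35746843 to 35747121) dropped from 77 and 73 reads to 11 and 11, or from 6.46 and 5.43 to 0.597 and 1.2001 CPM (-2.87, SE 0.28, adjusted p = 1.44e-07, edgeR). A second intragenic site (35683803) went from 9.31 and 7.29 to 4.29 and 3.71 CPM (-1.01, SE 0.18, adjusted p = 0.000217, edgeR). Both kept their call in each fit. The start interval of TRIM44 did not pass, with 25.6 and 29.5 CPM in control and 30.6 and 31.6 CPM in shIRF4 (0.17, adjusted p = 0.182, edgeR). TRIM44 and TRIM66 thus both combined a start region that did not pass with an intragenic site that lost most of its reads.

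TRIM8, which promotes NF-kB and JAK-STAT signalling, fell at 3 of its 4 intervals. The strongest was intragenic on chromosome 10 (102650999 to 102652921), at 32.6 and 31.1 CPM in control and 19.5 and 20.4 CPM in shIRF4 (-0.68, SE 0.09, adjusted p = 4.78e-06, edgeR). An interval 2753 bp outside the gene (102660019) fell from 41.1 and 44.1 to 36.0 and 31.4 CPM (-0.32, SE 0.08), a call lost without control replicate 2 (-0.27, adjusted p = 0.0871, edgeR). A weaker fall at 102650175 (-0.47, adjusted p = 0.0420, edgeR) was lost without either control replicate (adjusted p = 0.192 and 0.177), with shIRF4 replicate 1 left out (-0.36, adjusted p = 0.300, edgeR) and with scaling by totals (adjusted p = 0.0672). The broad interval over one end of TRIM8, 8168 bp long, held 243 and 246 CPM in control and 240 and 220 CPM in shIRF4 and did not pass (-0.09, adjusted p = 0.249, edgeR).

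TRIM2, TRIM3, TRIM32 and TRIM71 share NHL repeats, which bind RNA or protein, and 3 of their 23 tested intervals were lower and 2 higher (13.0% and 8.70%, near the 15.5% and 7.27% of all). TRIM2, a neuronal ligase, had the most intervals of the family (20, of which 3 fell and 1 rose). The first 2 starts of TRIM2 on chromosome 4 lie in an interval (153152033 to 153152447) that fell from 9.31 and 9.89 to 5.92 and 5.13 CPM (-0.77, SE 0.15, adjusted p = 0.000651, edgeR). The neighbouring start interval (153152927) fell from 29.1 and 29.9 to 24.6 and 21.5 CPM (-0.34, SE 0.09, adjusted p = 0.00744, edgeR), and an intragenic one (153156165) from 13.7 and 12.4 to 10.1 and 8.62 CPM (-0.45, SE 0.13, adjusted p = 0.0131, edgeR). These falls sit side by side, whereas the start at 153222159, farther into the gene, did not pass (-0.14, adjusted p = 0.430, edgeR). With control replicate 2 left out, 153152927 missed the threshold (adjusted p = 0.0673, edgeR), as 153156165 did with control replicate 1 left out (adjusted p = 0.140, edgeR). A sparse site at 153217439, with 28 and 16 reads in control and 64 and 28 in shIRF4, rose by 0.93 (SE 0.27), and its value was 0.50 without control replicate 2 (adjusted p = 0.371, edgeR); it was also lost without shIRF4 replicate 1 (0.82, adjusted p = 0.158, edgeR). TRIM32, a ligase mutated in limb-girdle muscular dystrophy, lies inside ASTN2 on chromosome 9, and its start interval (116686688) held 28.8 and 26.6 CPM in control and 34.4 and 31.2 CPM in shIRF4 (0.26, SE 0.08, adjusted p = 0.0297, edgeR). It passed only without shIRF4 replicate 2 among the fits that left out a library (adjusted p = 0.0639, 0.316 and 0.245 in the others).

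The COS box and muscle group, whose members act on microtubules or in muscle, had 5 higher and 4 lower of 31 tested intervals (16.1% and 12.9%, against 7.27% and 15.5% of all). TRIM55, a muscle RING finger protein gene on chromosome 8, fell at 2 of 5 intervals, both inside the gene. The one at 66121508 to 66121834 went from 7.55 and 8.26 to 2.33 and 2.84 CPM (-1.66, SE 0.19, adjusted p = 1.52e-06, edgeR) and was called in each fit. The one at 66154159 went from 4.45 and 5.36 to 2.44 and 3.05 CPM (-0.89, SE 0.22), a call lost without control replicate 2 (-0.74, adjusted p = 0.0791, edgeR) and without shIRF4 replicate 1 (-0.68, adjusted p = 0.120, edgeR). Near one end of TRIM55, the interval at 66112613 held 47.7 and 51.3 CPM in control and 48.7 and 52.8 CPM in shIRF4, and the groups overlapped.

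TRIM9, a brain ligase that also dampens NF-kB, was higher at 2 of 7 intervals and lower at 1. The intragenic interval at 51039320 on chromosome 14 rose from 3.94 and 3.94 to 6.79 and 7.75 CPM (0.85, SE 0.18, adjusted p = 0.00114, edgeR), a call lost in DESeq2 (adjusted p = 0.0549). The interval 65279 bp outside (51160223) rose from 2.35 and 2.46 to 4.83 and 3.82 CPM (0.89, SE 0.22, adjusted p = 0.00529, edgeR), while the one at 51087004 fell from 3.44 and 3.79 to 2.23 and 1.96 CPM (-0.76, SE 0.23, adjusted p = 0.0202, edgeR). The start interval of TRIM9, at 44.6 and 53.0 CPM in control and 57.1 and 54.8 CPM in shIRF4, did not pass (0.20, adjusted p = 0.0694, edgeR). The rise at 51160223 was lost without shIRF4 replicate 1 (0.67, adjusted p = 0.151, edgeR), and the fall at 51087004 with any library but shIRF4 replicate 2 left out (edgeR adjusted p = 0.0510 and 0.151 for the controls, 0.0885 for shIRF4 replicate 1).

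TRIM36, which binds the cytoskeleton, rose at an interval 55821 bp outside the gene on chromosome 5 (115068308), from 14.1 and 14.95 to 21.3 and 19.5 CPM (0.50, SE 0.10, adjusted p = 0.000892, edgeR). TRIM36 kept that call with any 1 library left out and lost it in DESeq2 (adjusted p = 0.0811). Neither of its start intervals passed. TRIM54, another muscle RING finger gene, had the largest rise of the family at a sparse intragenic interval on chromosome 2 (27290566), from 22 and 17 reads to 61 and 33, or from 1.85 and 1.26 to 3.31 and 3.60 CPM (1.14, SE 0.26, adjusted p = 0.00236, edgeR). Without control replicate 2 it was 0.88 (adjusted p = 0.0740, edgeR). TRIM72, a membrane repair protein gene of muscle, had a lower interval 12563 bp outside (31243872, from 5.37 and 5.43 to 3.37 and 3.93 CPM; -0.60, adjusted p = 0.0276, edgeR). That call was lost without control replicate 1 (adjusted p = 0.119), control replicate 2 (adjusted p = 0.145) or shIRF4 replicate 1 (-0.45, adjusted p = 0.274, edgeR). An intragenic interval of TRIM46, which bundles axonal microtubules, rose from 4.61 and 4.17 to 6.13 and 6.33 CPM (0.50, adjusted p = 0.0452, edgeR) and missed the threshold with any 1 library left out (adjusted p = 0.0549 to 0.298).

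Among genes copied in recent primate evolution, 10 of 14 had no interval, and 2 of 9 tested intervals were lower (22.2%, against 15.5% of all). Near-identical copies share reads, and fractions of multi-mapping reads were requested in the counting, so these values are uncertain. An interval 52008 bp outside TRIM43 on chromosome 2 (95539848 to 95540138) fell from 6.29 and 6.47 to 2.17 and 2.18 CPM (-1.55, SE 0.21, adjusted p = 7.48e-06, edgeR), and was called in each fit. At TRIM73 an interval on chromosome 7 (75403869) fell from 14.3 and 16.8 to 11.2 and 13.3 CPM (-0.38, adjusted p = 0.0285, edgeR). Its call was lost without control replicate 2 (-0.24, adjusted p = 0.387, edgeR), without shIRF4 replicate 1 (-0.22, adjusted p = 0.374, edgeR) and with scaling by totals (adjusted p = 0.0537, edgeR).

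TRIM61, a little-studied gene on chromosome 4, had 3 lower intervals among 7, all outside the gene on one side. The one 18475 bp away (164935422 to 164936521) fell from 17.9 and 19.2 to 9.83 and 10.1 CPM (-0.90, SE 0.11, adjusted p = 3.57e-06, edgeR) and was called in each fit. Closer in, the interval at 164949040 changed by -1.16 (adjusted p = 0.00585, edgeR) and the one at 164949371 by -0.71 (adjusted p = 0.0173, edgeR). In edgeR, the former was lost without control replicate 1 (adjusted p = 0.0820) or shIRF4 replicate 1 (adjusted p = 0.178), and the latter without control replicate 1 (adjusted p = 0.0548), control replicate 2 (adjusted p = 0.133) or shIRF4 replicate 1 (adjusted p = 0.215). The start interval of TRIM61 held 8.14 and 11.2 CPM in control and 9.34 and 9.06 CPM in shIRF4, and the groups overlapped.

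The 8 TRIM genes of the MHC region on chromosome 6 had 1 higher and 1 lower interval of 26 (3.85% each, against 7.27% and 15.5% of all). The higher one is the TRIM38 start described above. TRIM27, a SUMO and ubiquitin ligase, held 16 of the 26 intervals, most of them outside all protein-coding bodies. Its 1 lower interval, 36606 bp outside (28865462), fell from 57.1 and 59.7 to 52.5 and 49.3 CPM (-0.19, adjusted p = 0.0441, edgeR) and was lost without either control replicate (adjusted p = 0.130 and 0.334), with shIRF4 replicate 2 left out (adjusted p = 0.0635) and with scaling by totals (adjusted p = 0.144). TRIM35, TRIM37 and TRIM45 had weak single rises. TRIM35, which regulates IRF7, rose 10289 bp outside the gene (27274264 on chromosome 8), from 10.2 and 12.1 to 14.6 and 14.6 CPM (0.39, adjusted p = 0.0217, edgeR), a call lost without control replicate 1 (0.28, adjusted p = 0.287, edgeR) and shIRF4 replicate 1 (adjusted p = 0.0885). TRIM37, a peroxisomal and centrosomal ligase, rose inside its body by 0.38 (adjusted p = 0.0320, edgeR), with losses without control replicate 1 (adjusted p = 0.0865), control replicate 2 (adjusted p = 0.256) and shIRF4 replicate 1 (adjusted p = 0.0679). TRIM45, a regulator of MAP kinase signalling, rose by 0.22 (adjusted p = 0.0474, edgeR), and passed only without shIRF4 replicate 2 among the fits that left out a library (adjusted p = 0.212 to 0.263 in the others). At TRIM7, none of 9 intervals passed, and the transmembrane ligases TRIM13 and TRIM59 had 3 intervals and no call.

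**Figure D4:**
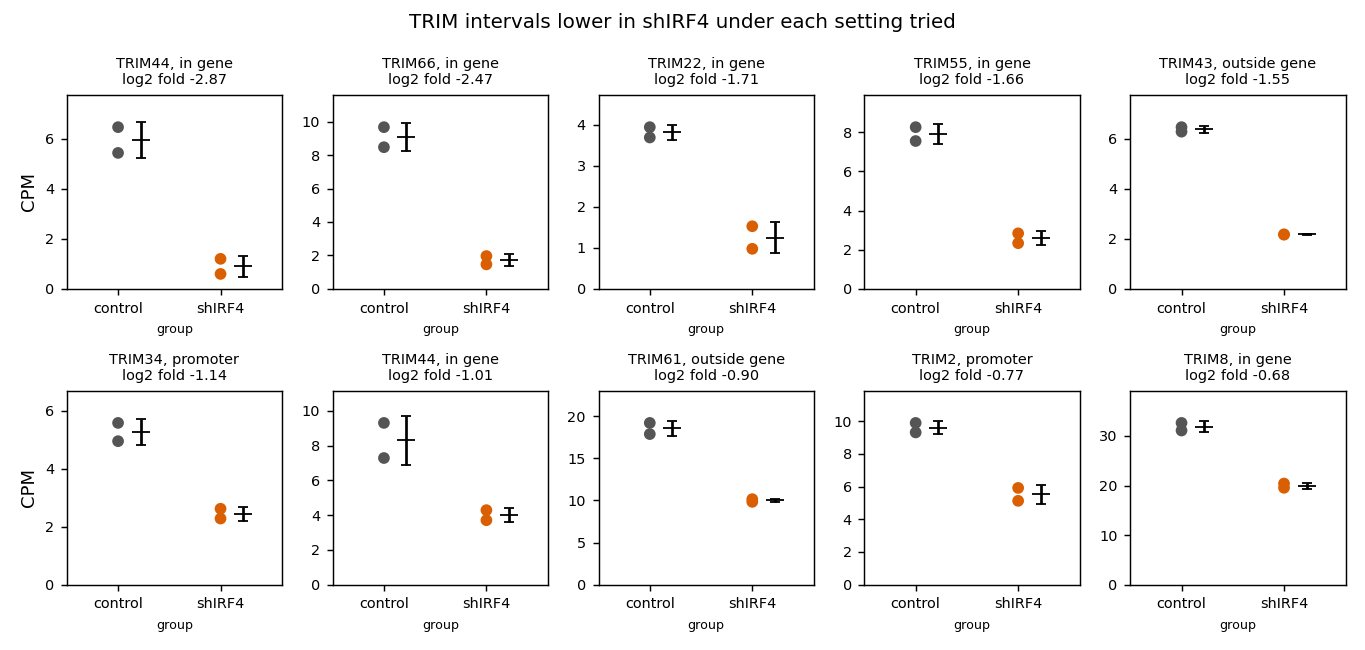
CPM in the 2 control (grey) and 2 shIRF4 (orange) libraries, with mean and SD bars, at the 10 TRIM intervals called lower in the reported fit and in each of the 8 other fits. In each panel both shIRF4 points lie below both control points, from a log2 fold change of -0.68 at TRIM8 to -2.87 at TRIM44.

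**Figure D5:**
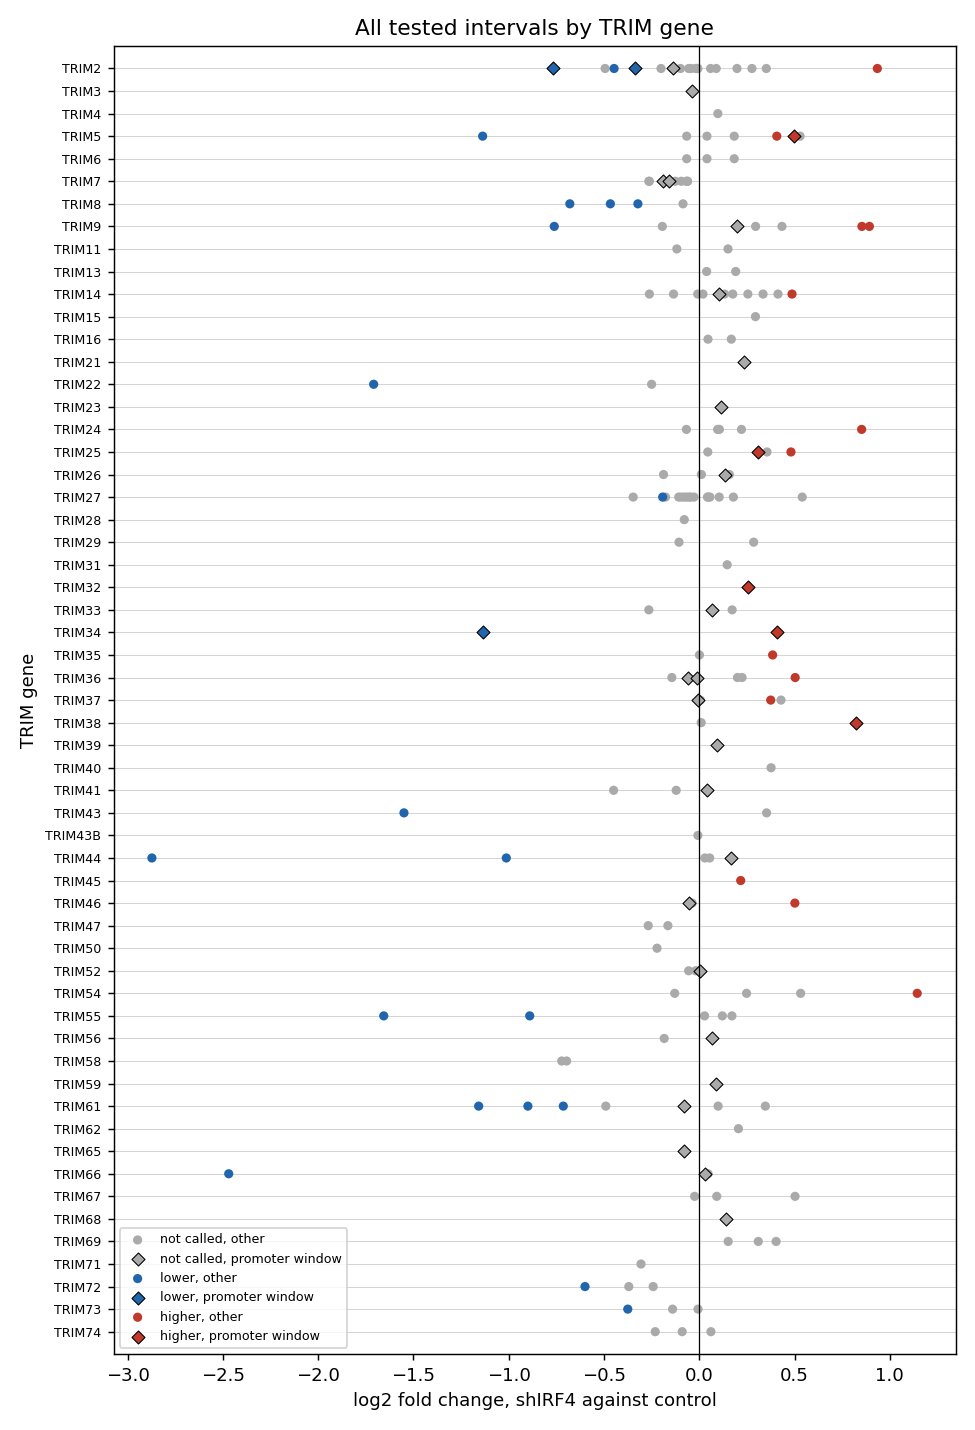
Log2 fold change in shIRF4 against control of each tested interval, by TRIM gene; diamonds overlap the gene's own promoter window, and colour gives the call. Intervals shared by TRIM5 with TRIM6 or TRIM34 appear in both lines, and TRIM2, TRIM5, TRIM9 and TRIM34 hold calls in both directions.

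Of the 21 falls 10, and of the 17 rises 1, were called in each of the 8 other fits. The 10 lay at TRIM44 (2), TRIM66, TRIM22, TRIM55, TRIM43, TRIM34, TRIM61, TRIM2 and TRIM8. Over all intervals too, rises were lost more often than falls: DESeq2 called 856 higher and 3714 lower, where the reported fit called 5306 and 11345. Calls kept in each fit were not counted over all intervals. Around the called TRIM intervals, other intervals within 1 Mb had medians between -0.03 and 0.10, so that no called TRIM interval lay in a stretch where the median interval moved by more than that. The lower intervals had a median length of 457 bp and a median of 7.90 CPM in control, while the higher ones had a median length of 668 bp and 10.5 CPM. Over all tested intervals these medians were 553 bp and 6.39 CPM, and over those at no promoter window 480 bp and 5.57 CPM.

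Genes that work with TRIM proteins were counted in the same way, but their calls were not checked under the other fits. The TRIM proteins with other symbols had 2 higher and 1 lower of 8 tested intervals (25.0% and 12.5%, against 7.27% and 15.5% of all). Among them PML, which builds nuclear bodies and is induced by interferon, had 2 of 4 intervals higher. The stronger, 6393 bp away, rose from 6.88 and 6.62 to 10.7 and 10.04 CPM (0.64, SE 0.14, adjusted p = 0.00192, edgeR). The single interval of TRIML1 was lower (-1.06, adjusted p = 0.00107, edgeR), and those of MID1 and MEFV did not pass. In the RIG-I and cGAS sensing pathway, 2 of 64 intervals were higher and 14 lower (3.13% and 21.9%, against 7.27% and 15.5% of all tested intervals), at a median of -0.07. TRAF3, an adaptor ligase downstream of MAVS, held 8 of the lower ones, the strongest from 70.9 and 67.4 to 37.7 and 38.5 CPM (-0.86, SE 0.07, adjusted p = 6.89e-09, edgeR). MAVS itself, the mitochondrial adaptor of RIG-I, had 1 lower interval of 3 (-0.89, SE 0.15). Among the partners of TRIM28 in SETDB1-dependent repression, 5 of 57 were higher and 14 lower (8.77% and 24.6%, against 7.27% and 15.5% of all), and none of the 3 at SETDB1 passed. ZNF274 held 10 of the lower ones. Its most clearly changed interval (58210807 on chromosome 19, -0.64) lies within 1 Mb of the TRIM28 interval, in the stretch where the median was -0.37, and the part of that stretch in these falls was not tested.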

How the data were processed

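ATAC-seq reads of 4 TMD8 libraries, 2 control and 2 shIRF4, had been counted by the authors over merged peaks by means of featureCounts 2.0.0, as per the file headers, and the deposited values are raw counts. Reads were reduced to their 5′ end, duplicates were ignored, pairs were read as paired-end and fractions of multi-mapping reads were requested, per the file headers, yet all values were whole (0 non-integer counts). Coordinates are in hg38, the build that the submitters' processing notes name. Which aligner and peak caller were used, and whether reads were shifted for the transposase, is not given in the sources used here. Ignoring duplicates can cap densely read intervals, more so in a deeper library.

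All 73135 intervals were analysed with edgeR 4.0.16 in R 4.3.3 (filterByExpr, TMM factors, glmQLFit with legacy=FALSE, two-sided quasi-likelihood F-test), with Benjamini-Hochberg adjustment over the 73028 tested intervals and a threshold of 0.05. Levels are TMM-scaled CPM, the SE is the log2 fold change divided by the square root of F, and the fit was tested on simulated counts. The gene table holds starts and ends without exons, so exons and introns were not told apart; a gene-end interval lies within 1 kb of either end or overlaps a RefSeq promoter window. Alternatives were DESeq2 1.42.0, scaling by totals, no filter, a replicate block, each library left out, and 4 other assignments.

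The TRIM genes, gene lists and naming rule were chosen with earlier results of these data known. The rule names each TRIM gene with a called interval, gives values per library for the 12 rising and 12 falling genes of smallest p, and gives a gene-end interval for each interferon-induced and nuclear cofactor gene that has one. The counts at promoter windows and at interferon-induced genes were rerun under the other fits after the data were seen.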

Additional observations from a re-analysis of the deposited data

How the results depend on the processing

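DESeq2 called 4570 intervals in all, 1 higher and 10 lower among TRIM intervals, where edgeR called 16651, 17 and 21. Leaving out 1 library gave 9042 to 20034 in all, 10 to 21 higher and 12 to 23 lower TRIM intervals; the highest numbers came without shIRF4 replicate 2, the shallowest library. Each of these fits left a group with 1 library, assumed to vary like the other group. Scaling by totals changed the genome's split from 5306 higher and 11345 lower to 7175 and 9930. At gene ends alone, where fewer intervals (55) were counted, 5 TRIM intervals were higher and 4 lower. The other assignments and the fit without a filter gave 12 to 17 higher and 14 to 21 lower TRIM intervals. No named TRIM interval called in the reported fit reversed its sign in any alternative. The labels do not say whether equal replicate numbers mark paired libraries, and the reported fit did not pair them. The replicate differences of the 2 groups correlated at r = -0.03 over 73028 intervals. Such differences also hold counting noise, so this value cannot show that the libraries were unpaired. With the replicate block 16619 intervals were called, 16 higher and 19 lower among TRIM intervals. Small shifts at intervals of few reads were not detectable at this depth.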
